A study of Mus musculus with 18 samples.

Results

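Ctgf, Cyr61, Ankrd1, Axl, Ptpn14, Amotl1, Amotl2, Ajuba, Lats2 and Tead1 are widely used transcript readouts of YAP and TAZ, the coactivators at the end of the Hippo pathway. They were taken by symbol from 3 count tables of 24421 rows each, and all 10 were found in all 3 tables. Transcript levels were measured by bulk RNA-seq in 18 libraries declared as mouse esophageal organoids, which are gel-embedded epithelial cultures. Every group was declared Trp53-/- with Myc overexpressed (Myc OE) and a guide RNA against Cdkn2a (sgCdkn2a). The groups were premalignant organoids that also carried a guide against Tgfbr2, the type II TGF-beta receptor (sgTgfbr2, n = 4, from 2 numbered lines), premalignant organoids labelled sgScr by title and with no Tgfbr2 guide (n = 3), tumor organoids with sgTgfbr2 (n = 2), tumor organoids labelled sgScr (n = 3), tumor sgTgfbr2 organoids treated with 2 µM pinaverium bromide (PB, a calcium channel blocker, n = 3), and tumor sgTgfbr2 organoids treated with DMSO (vehicle, n = 3). Drug was added after 72 h of culture. How long it stayed on, the animals' age and strain, and the guide's target site are not given in the labels. The shared medium was listed with 2 µM A83-01, which blocks TGF-beta type I receptors, and with 10 µM Y27632, which blocks ROCK kinases.

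In the Hippo pathway the kinases MST1/2 (encoded by Stk4 and Stk3) activate LATS1/2, which phosphorylate YAP and TAZ and so hold them in the cytoplasm. Unphosphorylated YAP and TAZ enter the nucleus and bind TEAD factors, which contact DNA. Cell shape, junctions and actin tension feed into this pathway, and in squamous epithelia YAP is known to be most active in basal progenitor cells. Several target genes encode inhibitors of YAP, so that the pathway limits itself.

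The genes fall into 3 roles. The effectors include Ctgf and Cyr61, secreted matricellular CCN proteins named Ccn2 and Ccn1 in newer annotation. Ctgf lies on chromosome 10 at 24595442 to 24598683, plus strand, and Cyr61 on chromosome 3 at 145646976 to 145649981, minus strand (GRCm38, GENCODE M21). Ankrd1 (chromosome 19, 36111961 to 36120099, minus strand) encodes an ankyrin repeat protein that is also abundant in striated muscle. Axl (chromosome 7, 25757273 to 25788705, minus strand) encodes a receptor tyrosine kinase for the ligand Gas6. The inhibitors and pathway regulators are Ptpn14, a phosphatase that binds YAP (chromosome 1, 189728268 to 189876695, plus strand), and the angiomotin-like scaffolds Amotl1 (chromosome 9, 14541966 to 14645056, minus strand) and Amotl2 (chromosome 9, 102716672 to 102733418, plus strand), which hold YAP at junctions and actin. Lats2 (chromosome 14, 57689662 to 57758388, minus strand) is the LATS kinase itself, whereas Ajuba (chromosome 14, 54567472 to 54577558, minus strand) is a LIM-domain scaffold that restrains LATS. Tead1 (chromosome 7, 112679318 to 112906807, plus strand) encodes a DNA-binding partner of YAP and TAZ.

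The start regions of these genes were read because TEAD factors recognise the letters GGAATG, or CATTCC on the other strand. RefSeq windows of 250 bases before to 50 after the start site (GRCm38.p6) matched 8 of the 10 genes by symbol, in 9 windows, since Lats2 has 2 start sites; Ctgf and Tead1 had no entry. A GGAATG match stood in 7 of the 8 genes, with 9 matches in all, and in 7 of the 9 windows. The same letters stood in 14.7% of 32851 windows. Amotl1 was the gene with a window but no match. The 3 upstream windows printed here belong to an effector (Cyr61), an inhibitor (Ptpn14) and the LATS scaffold with a pair of matches (Ajuba). They lie at chr3:145649986-145650235 (minus strand), chr1:189728018-189728267 (plus strand) and chr14:54577662-54577911 (minus strand), each ending at the base before the start site, and the TEAD letters are in capitals.
Cyr61: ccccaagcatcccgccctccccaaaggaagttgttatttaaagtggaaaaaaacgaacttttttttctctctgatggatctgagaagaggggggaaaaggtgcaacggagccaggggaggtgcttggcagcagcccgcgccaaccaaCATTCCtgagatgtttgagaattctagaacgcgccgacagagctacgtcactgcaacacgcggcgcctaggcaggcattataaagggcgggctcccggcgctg
Ptpn14: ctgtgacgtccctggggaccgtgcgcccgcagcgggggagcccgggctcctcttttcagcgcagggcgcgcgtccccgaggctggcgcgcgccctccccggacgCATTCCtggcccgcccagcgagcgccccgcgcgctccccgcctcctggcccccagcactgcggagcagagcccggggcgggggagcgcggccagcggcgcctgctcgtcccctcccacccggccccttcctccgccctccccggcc
Ajuba: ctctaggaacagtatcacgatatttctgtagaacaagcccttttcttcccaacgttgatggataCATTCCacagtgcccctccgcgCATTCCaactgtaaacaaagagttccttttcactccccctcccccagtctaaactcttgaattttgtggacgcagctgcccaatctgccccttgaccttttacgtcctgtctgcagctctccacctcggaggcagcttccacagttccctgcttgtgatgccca
Of the other 4 genes with a match, 30 bases centred on the TEAD letters are shown; those of Ankrd1, Amotl2 and Lats2 overlap exons of GENCODE M21, that of Axl and the 3 full windows do not.
Ankrd1, chr19:36120037-36120066, minus strand: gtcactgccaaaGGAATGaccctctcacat
Ankrd1, chr19:36119950-36119979, minus strand: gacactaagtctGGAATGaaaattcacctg
Amotl2, chr9:102717727-102717756, plus strand: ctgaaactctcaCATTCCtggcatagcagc
Axl, chr7:25788949-25788978, minus strand: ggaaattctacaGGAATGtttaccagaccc
Lats2, chr14:57746102-57746131, minus strand: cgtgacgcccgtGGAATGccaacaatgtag
The first letter of the match lay 103 bases before the start in Cyr61, 146 in Ptpn14, 65 in Amotl2 and 233 in Axl. In Ankrd1 the pair began 210 and 123 bases before the start, and in Ajuba 186 and 164. The Lats2 match lay 5 bases inside the transcript. The AP-1 letters TGANTCA, searched on both strands, stood in 0 of the 8 genes and in 7.81% of all windows. The SMAD letters CAGAC, on either strand, stood in 6 of the 8 genes, with 1 match over the 2 windows of Lats2. They stood in 49.6% of all windows, a share per window and not per gene. In Ankrd1 a SMAD match overlapped a TEAD match. These are matches of letters and say nothing of binding.

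**Figure D1:**
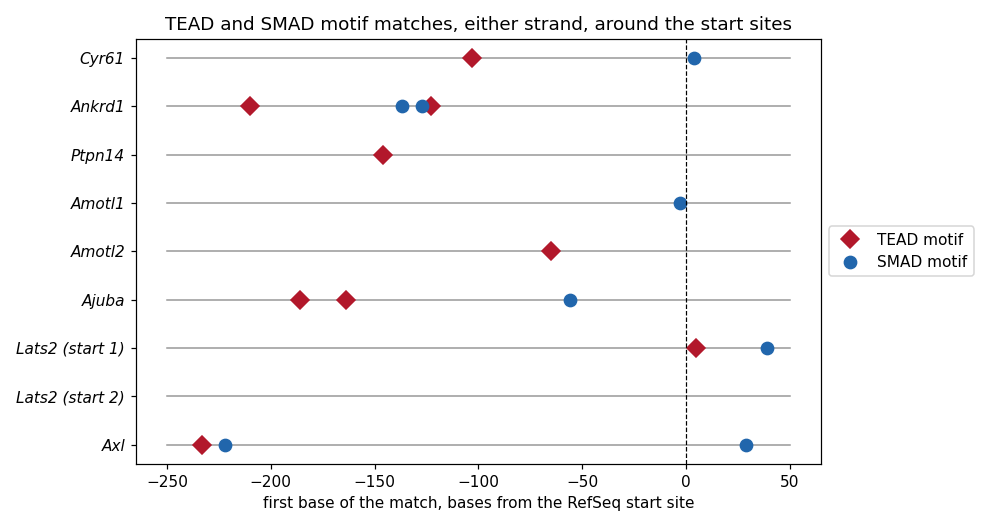
Positions of TEAD (GGAATG, diamonds) and SMAD (CAGAC, circles) letter matches on either strand in the 9 RefSeq windows, with bases from the start site on the horizontal axis and 1 row per window. TEAD matches stand in 7 of the 8 genes, all but the Lats2 match before the start site.

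Libraries held 14993749 to 21784140 counts, and levels are given as CPM, the counts scaled to a fixed library total. Tgfbr2 was lower with its guide in both tables by edgeR's quasi-likelihood test, with log2 fold changes of -0.86 ± 0.14 (SE, adjusted p = 0.00132) before and -1.08 ± 0.13 (adjusted p = 4.19e-07) after tumor formation. Nothing in the labels ties replicates to separate cultures or mice, so a p-value here weighs the spread among libraries only, which may be technical. The squamous markers Krt5 and Krt14 averaged at least 968 CPM in all 6 groups. The untreated tumor libraries also held markers of other tissues. Summed skeletal muscle markers (11 genes) reached 18345 CPM or more in each tumor sgScr library, against a mean of 3.33 CPM in tumor sgTgfbr2. Gastric and columnar markers (11 genes) averaged 30701 CPM in tumor sgTgfbr2 and 2.38 CPM in tumor sgScr. The declared stage and genotype of the vehicle libraries match those of the untreated sgTgfbr2 pair. They averaged 727 CPM for the gastric and columnar list, most of it from the keratin gene Krt18. Of that list 4 of 11 genes averaged at least 1 CPM with vehicle, and Pgc, Gkn2, Tff1 and Tff2 had no count. The 9 fibroblast markers averaged 0.502 CPM with vehicle, and Col3a1, Dcn, Lum and Col6a1 had no count. The fibroblast sum in tumor sgTgfbr2 was 2427 CPM. In such bulk samples fewer cells of a type and less RNA per cell cannot be told apart.

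The premalignant comparison asks what the Tgfbr2 guide changes in cells that have not formed tumors. Of the 10 genes, 9 rose with sgTgfbr2 and 0 fell, where 22.7% of 13098 genes tested passed upward, 23.5% downward and 46.2% either way (edgeR, Benjamini-Hochberg adjusted p under 0.05 over all genes). The median log2 fold change of the 10 was 1.01, and that of all genes tested was -0.0037. Ankrd1 has the largest change of the 10 even at the low end of its counting interval. Its exact size therefore cannot move the median of 1.01. Libraries of the groups did not overlap in the same 9 genes, where 28.1% of all genes had every sgTgfbr2 library above every sgScr library.

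Among the effectors, Ctgf stood at 32.8 and 28.2 CPM in line 2 and 28.8 and 39.9 CPM in line 1 of sgTgfbr2, against 4.45, 4.87 and 8.19 CPM in sgScr. Every sgTgfbr2 library therefore held several times the Ctgf of any sgScr library, a 5.30-fold difference in the fit (log2 fold change 2.41 ± 0.22, SE, edgeR adjusted p = 1.13e-04). Cyr61, the other CCN gene, stood at 391 and 335 CPM in line 2 and 318 and 369.6 CPM in line 1, against 119, 108 and 153 CPM in sgScr. The groups lay apart, 2.66-fold (log2 fold change 1.41 ± 0.12, adjusted p = 9.83e-05). Ankrd1 was counted 27 and 26 times in line 2 and 77 and 93 times in line 1, against 1, 0 and 0 counts in sgScr. Over the groups this is 223 counts against 1, a ratio of CPM of 181 with a counting interval of 32.1 to 7164 that covers counting error only; the gene passed the test (adjusted p = 7.51e-04). Axl, the receptor gene, stood at 863 and 779 CPM in line 2 and 655 and 681 CPM in line 1, against 305, 279 and 415 CPM in sgScr. It rose 2.14-fold (log2 fold change 1.10 ± 0.15, adjusted p = 5.64e-04), with no overlap.

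The pathway regulators rose too, except Ajuba, which did not pass. Ptpn14 stood at 150.0 and 119 CPM in line 2 and 132 and 129.8 CPM in line 1, against 41.7, 33.4 and 49.9 CPM in sgScr. Its 3.05-fold rise was the largest among the regulators (log2 fold change 1.61 ± 0.13, adjusted p = 7.45e-05), and the groups lay far apart. Amotl1 stood at 515 and 433 CPM in line 2 and 346 and 359 CPM in line 1, against 194, 167 and 266 CPM in sgScr (log2 fold change 0.92 ± 0.18, adjusted p = 0.00314). Amotl2 stood at 96.4 and 77.2 CPM in line 2 and 79.4 and 80.7 CPM in line 1, against 46.3, 38.4 and 63.6 CPM in sgScr (log2 fold change 0.69 ± 0.15, adjusted p = 0.00554). In both angiomotin-like genes the lowest sgTgfbr2 library lay above sgScr replicate 3, the highest of the sgScr libraries. Lats2 stood at 13.7 and 12.01 CPM in line 2 and 12.4 and 11.3 CPM in line 1, against 7.62, 4.73 and 9.26 CPM in sgScr (log2 fold change 0.72 ± 0.20, adjusted p = 0.0182). Its call was lost without sgScr replicate 1 (adjusted p = 0.0520) and with the libraries of each line summed (adjusted p = 0.0585), in a range of 0.00349 to 0.0585 over 16 alternatives. Tead1 stood at 209 and 175 CPM in line 2 and 175 and 171 CPM in line 1, against 108, 108 and 122 CPM in sgScr (log2 fold change 0.63 ± 0.09, adjusted p = 8.97e-04). The DNA-binding partner thus rose with no overlap between groups.

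Ajuba, the scaffold that restrains LATS, stood at 115 and 102 CPM in line 2 and 90.6 and 92.0 CPM in line 1, against 112, 102 and 110.4 CPM in sgScr. The groups overlapped and the gene did not pass the test (log2 fold change -0.18 ± 0.10, adjusted p = 0.156). Its upstream window, printed above, holds a pair of TEAD matches.

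The fit treats the libraries of a line as independent and its p-values may be too small. Without sgScr replicate 1 or 2 the number of genes called higher was 1977 or 1954 in place of 2979. Squamous markers summed to 6866 to 10418 CPM in the sgTgfbr2 libraries and 12866 to 13909 CPM in the sgScr libraries, and immune markers averaged 48.2 and 20.6 CPM, with Lyz2, Tyrobp, Adgre1 and Cd3e at 0 in both groups. Gastric and columnar markers summed to 1156 to 1233 CPM in the sgTgfbr2 libraries and 832 to 881 CPM in the sgScr libraries. Fibroblast markers summed to 2.40 to 4.69 CPM and 1.07 to 1.47 CPM, and endothelial markers to 32.5 to 36.5 CPM and 25.8 to 29.8 CPM. These sums rest on few genes. In both groups 3 of 11 gastric and columnar genes and 1 of 8 endothelial genes averaged at least 1 CPM. Gkn2, Tff1 and Emcn had no count in either group. Of the 9 fibroblast genes, 1 averaged at least 1 CPM in sgTgfbr2 and 0 in sgScr. Their part in the changes of the 10 genes was not tested.

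**Figure D2:**
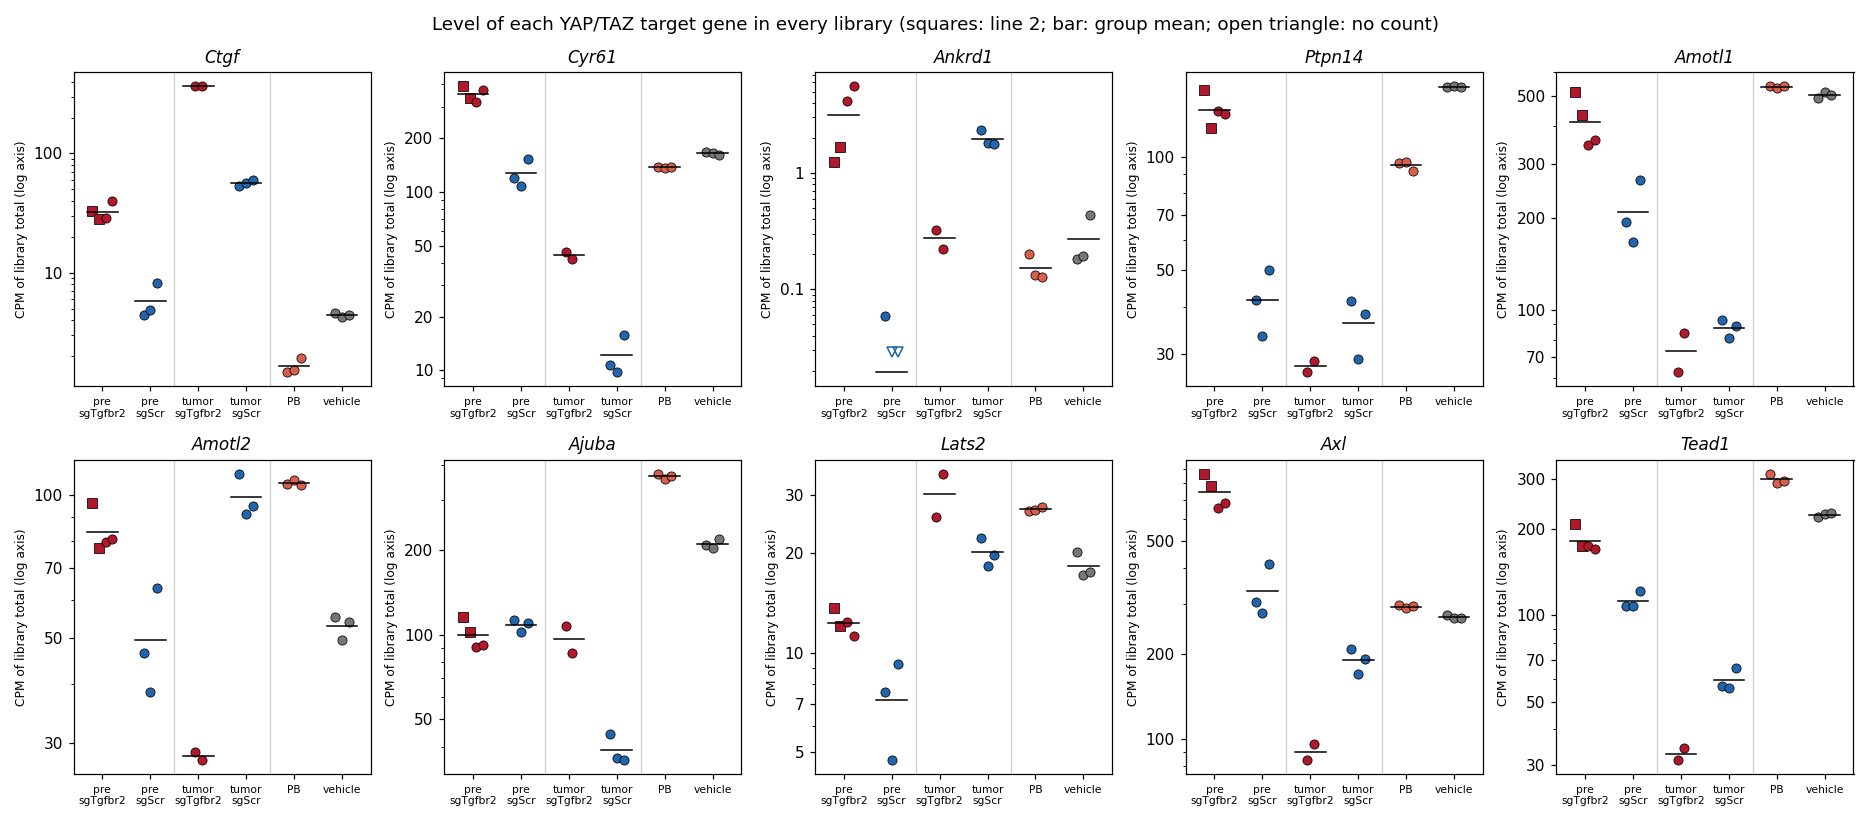
CPM of the library total (vertical, log axis) for each of the 10 genes in all 18 libraries, by group; squares are sgTgfbr2 line 2, horizontal bars are group means and open triangles mark libraries with no count. In premalignant organoids the sgTgfbr2 libraries lie above the sgScr libraries for all genes but Ajuba.

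The 2 sgTgfbr2 lines are the only labelled split of the premalignant group. Set against the same 3 sgScr libraries, line 2 had 9 of the 10 genes higher and 0 lower (27.7% and 28.5% of all genes), and line 1 had 9 higher and 1 lower (25.3% and 24.0%). These fits share their sgScr libraries, so the second is no repeat of the first. In line 2 and line 1 the log2 fold change was 2.32 ± 0.20 and 2.51 ± 0.22 for Ctgf, 1.45 ± 0.12 and 1.40 ± 0.12 for Cyr61 and 1.63 ± 0.14 and 1.62 ± 0.13 for Ptpn14. A direct test between the lines passed none of these 3 (adjusted p = 0.585, 0.666 and 0.840), which does not show that they were equal. Ajuba was lower with line 1 alone (log2 fold change -0.29 ± 0.08, adjusted p = 0.0148) and did not pass with line 2 alone (-0.06 ± 0.09, adjusted p = 0.581).

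That test, of line 2 against line 1, called 2 of the 10 genes higher and 1 lower, where 13.2% and 13.1% of 13438 genes were called and 26.3% either way. Both line 2 libraries lay above both line 1 libraries in Amotl1, Ajuba, Axl and Tead1 (33.5% of all genes) and below them in Ankrd1 (35.5%). Ankrd1 was lower in line 2, at 1.24 and 1.69 CPM, against 4.18 and 5.57 CPM in line 1 (log2 fold change -1.74 ± 0.36, adjusted p = 0.00292). Against sgScr the ratio of CPM was 83.5 in line 2 (counting interval 14.3 to 3359) and 283 in line 1 (50.2 to 11255). The call was lost without line 2 replicate 1 (log2 fold change -1.50, adjusted p = 0.0635, in a range of 1.08e-05 to 0.0635 over 12 alternatives). Amotl1 (log2 fold change 0.43 ± 0.15, adjusted p = 0.0433) and Ajuba (0.26 ± 0.09, adjusted p = 0.0485) were higher in line 2, close to the threshold. Both calls were lost under library totals, under a filter of 1 CPM, without sgScr replicate 1 and without any single library of either line, with adjusted p-values of 4.52e-05 to 0.306 for Amotl1 and 0.00642 to 0.334 for Ajuba over 12 alternatives. The Ajuba call was also lost with DESeq2 and with no filter. Axl (0.30 ± 0.13, adjusted p = 0.103) gained a call in 4 of the 12, among them with no filter and without sgScr replicate 2 or 3, in a range of 0.00138 to 0.395. Tgfbr2 itself was also lower in line 2, at 105 and 86.2 CPM, against 128 and 131 CPM in line 1 (log2 fold change -0.43 ± 0.11, adjusted p = 0.00915). Squamous markers summed to 10090 to 10418 CPM in line 2 and 6866 to 7008 CPM in line 1. Their part, and that of Tgfbr2, in the line differences was not tested.

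**Figure D3:**
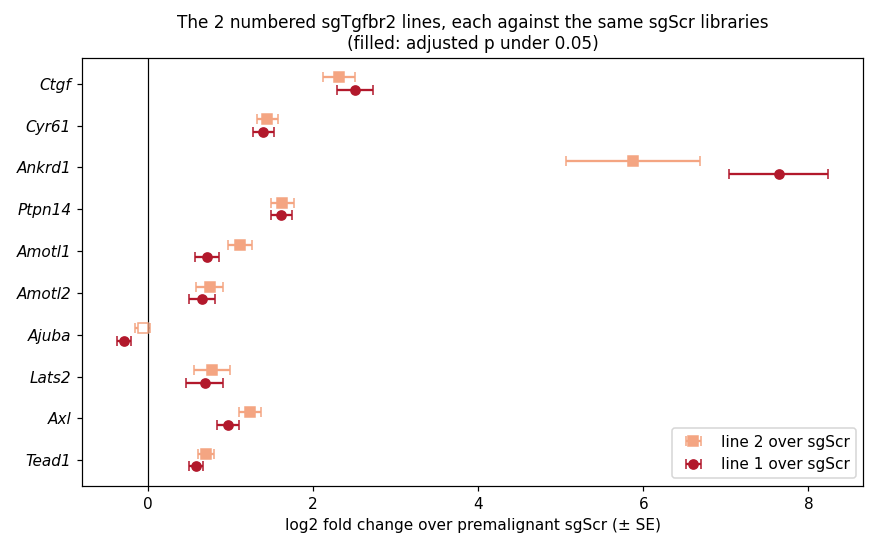
Log2 fold change over the 3 premalignant sgScr libraries (horizontal, ± SE, edgeR) for each gene in sgTgfbr2 line 2 (squares) and line 1 (circles); filled symbols passed an adjusted p of 0.05. Ctgf lies at 2.32 in line 2 and 2.51 in line 1, and the Ankrd1 fold, set against 1 count in sgScr, depends on the fit's prior count.

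In the tumor table a guide against Tgfbr2 went with a split among the genes. Of the 10, 3 rose with sgTgfbr2 and 6 fell, where 29.8% of 15091 genes tested rose, 30.5% fell and 60.3% did either. The median log2 fold change was -0.61 for the 10 genes and -0.02 for all genes. The CCN genes and Ajuba rose, and Ankrd1, Axl, Ptpn14, Amotl1, Amotl2 and Tead1 fell. Every sgTgfbr2 library lay above every sgScr library in 4 genes (46.4% of all genes) and below in 5 (27.9%).

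Ctgf reached 365 and 367 CPM in tumor sgTgfbr2, against 53.0, 56.1 and 59.3 CPM in tumor sgScr. The untreated tumor libraries of both genotypes held more Ctgf than any other library of the study, and the groups lay 5.35-fold apart in the fit (log2 fold change 2.42 ± 0.13, edgeR adjusted p = 2.02e-13). The fit scales libraries otherwise than the CPM, so the folds here and below are not ratios of the CPM beside them, unless called a ratio of CPM. Cyr61 stood at 46.3 and 42.2 CPM in tumor sgTgfbr2, against 10.8, 9.78 and 15.9 CPM in tumor sgScr. It rose 3.01-fold in the fit, with no overlap (log2 fold change 1.59 ± 0.19, adjusted p = 3.54e-07), although the untreated tumor libraries were the lowest of the study in this gene. Ajuba stood at 107 and 86.3 CPM in tumor sgTgfbr2, against 44.5, 36.4 and 35.9 CPM in tumor sgScr (log2 fold change 1.03 ± 0.15, adjusted p = 4.87e-06). Both sgTgfbr2 libraries held more Ajuba than any sgScr library.

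Of the genes that fell, Amotl2 stood at 28.7 and 27.6 CPM in tumor sgTgfbr2, against 111, 91.2 and 94.6 CPM in tumor sgScr. This was a 4.28-fold drop in the fit, with wide separation (log2 fold change -2.10 ± 0.15, adjusted p = 6.65e-11). Axl stood at 84.4 and 95.6 CPM in tumor sgTgfbr2, against 208, 169.7 and 192 CPM in tumor sgScr (log2 fold change -1.36 ± 0.14, adjusted p = 1.52e-08). Tead1 stood at 31.3 and 34.5 CPM in tumor sgTgfbr2, against 56.9, 55.9 and 65.4 CPM in tumor sgScr (log2 fold change -1.14 ± 0.15, adjusted p = 1.13e-06). Both the receptor and the TEAD factor lay lower in each sgTgfbr2 library than in any sgScr library. Ankrd1 was counted 6 and 4 times in tumor sgTgfbr2, at 0.325 and 0.224 CPM, against 44, 39 and 30 counts in tumor sgScr, at 2.32, 1.81 and 1.78 CPM. The gene fell (log2 fold change -3.09 ± 0.73, edgeR adjusted p = 9.67e-04). All 11 genes of the skeletal muscle list averaged at least 1 CPM in tumor sgScr, and Myh2, Myh8 and Tnnc2 had no count in tumor sgTgfbr2. Ankrd1 averaged 1.97 CPM in tumor sgScr, where the skeletal muscle sum averaged 18606 CPM. In premalignant sgTgfbr2 Ankrd1 averaged 3.17 CPM, with a skeletal muscle sum of 8.17 CPM. The part of muscle content in the Ankrd1 result was not tested.

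Ptpn14 stood at 26.8 and 28.7 CPM in tumor sgTgfbr2, against 41.4, 29.0 and 38.2 CPM in tumor sgScr. The groups all but touched, and the gene passed (log2 fold change -0.67 ± 0.17, adjusted p = 0.00209). Amotl1 overlapped between groups, at 62.6 and 84.0 CPM in tumor sgTgfbr2, against 92.9, 81.2 and 88.4 CPM in tumor sgScr (log2 fold change -0.54 ± 0.14, adjusted p = 0.00244). Lats2 stood at 25.8 and 34.8 CPM in tumor sgTgfbr2, against 22.3, 18.3 and 19.8 CPM in tumor sgScr, and did not pass (log2 fold change 0.30 ± 0.18, adjusted p = 0.152). These 3 calls turned on the scaling. With library totals in place of TMM factors the median of all genes moved to 0.26, with 6046 genes higher and 3361 lower in place of 4492 and 4603. Ptpn14 (adjusted p = 0.0697) and Amotl1 (adjusted p = 0.145) then lost their calls and Lats2 gained one (adjusted p = 0.00921). The Amotl1 call was also lost without tumor sgTgfbr2 replicate 1 (adjusted p = 0.0664). Over 11 alternatives the adjusted p ran from 4.13e-04 to 0.0697 for Ptpn14, from 4.89e-04 to 0.145 for Amotl1 and from 0.00921 to 0.721 for Lats2.

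Markers of other cell types moved with the tumor groups. In tumor sgTgfbr2 and tumor sgScr the summed means were 1618 and 404 CPM for smooth muscle, 2427 and 3103 CPM for fibroblasts, 784 and 943 CPM for immune cells, 129 and 165 CPM for endothelium, and 30949 and 123966 CPM for squamous epithelium. Their part in the tumor results of the 10 genes was not tested.

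**Figure D4:**
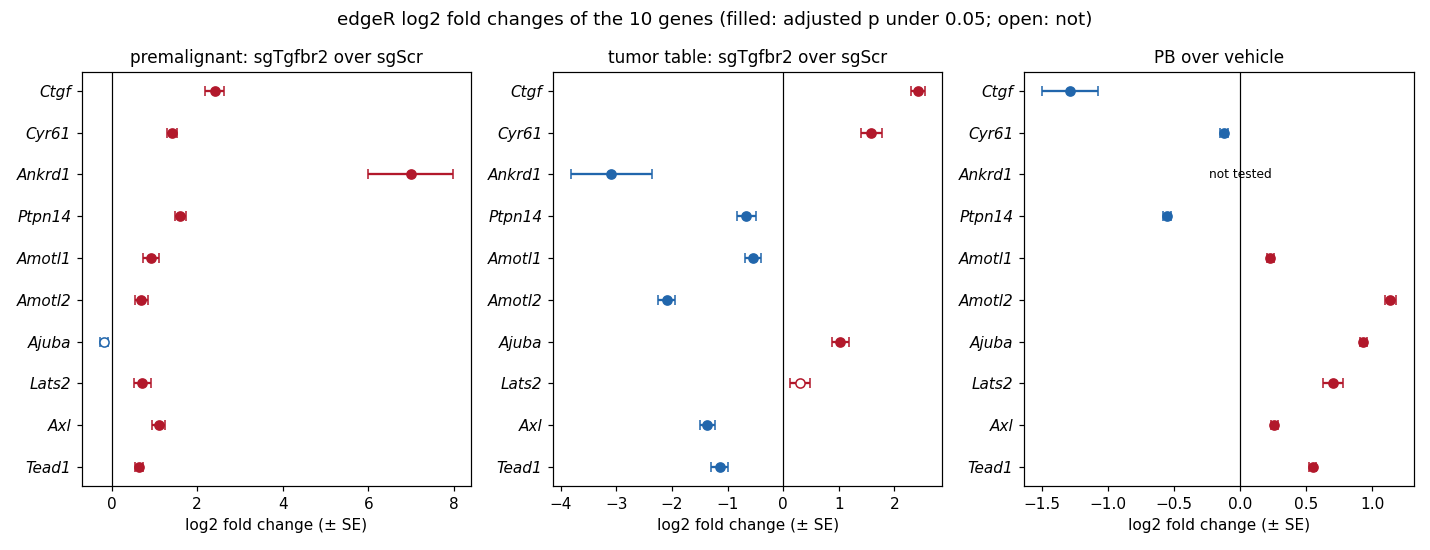
Log2 fold changes (horizontal, ± SE, edgeR) of the 10 genes in premalignant organoids and the tumor table, both sgTgfbr2 over sgScr, and in PB over vehicle; filled symbols passed an adjusted p of 0.05, and each panel has its own scale. 9 genes lie right of 0 in the premalignant panel, against 4 in the tumor panel, and Ctgf lies left of 0 in the PB panel.

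Whether the guide's effect differed between the tables was tested as a contrast over the 12 libraries (tumor minus premalignant). Of the 10 genes, 1 was higher and 6 were lower, where 25.0% and 24.5% of 15671 genes were called and 49.5% either way. Amotl2 differed by -2.80 ± 0.23 (SE, adjusted p = 1.29e-07), Axl by -2.47 ± 0.22 (adjusted p = 2.76e-07), Ptpn14 by -2.28 ± 0.22 (adjusted p = 6.95e-07), Tead1 by -1.78 ± 0.17 (adjusted p = 4.41e-07) and Amotl1 by -1.47 ± 0.26 (adjusted p = 2.28e-04), all in log2 units. Each of these genes rose with the guide in premalignant organoids and fell in the tumor table. Ankrd1 was also lower in this contrast (adjusted p = 5.58e-06), with a size that depends on the single sgScr count, and Ajuba was higher by 1.20 ± 0.19 (adjusted p = 9.38e-05). Ctgf (0.01 ± 0.30, adjusted p = 1.00), Cyr61 (0.17 ± 0.23, adjusted p = 0.588) and Lats2 (-0.43 ± 0.29, adjusted p = 0.238) did not pass, which does not show that the effects were equal. Stage and the tissue content of the libraries cannot be told apart in this contrast.

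The drug comparison asks what PB, given to tumor organoids with the Tgfbr2 guide, changes against vehicle. Ankrd1 was too scarce to test, and of the other 9 genes 6 rose and 3 fell. Across 12801 genes tested, 36.5% rose and 36.8% fell, so that most genes were called and a count of 9 in 9 is to be read against 73.3%. The median log2 fold change was 0.26 for the 9 genes and -0.01 for all genes. Replicates of this table lay close to sampling noise, with chi-square values per degree of freedom of 1.51 to 2.03. The PB libraries lay above all vehicle libraries in 6 of the 9 genes (26.2% of all genes) and below them in 3 (48.5%).

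The CCN genes fell. Ctgf stood at 1.47, 1.52 and 1.93 CPM with PB, from 22, 23 and 30 counts, against 4.60, 4.23 and 4.43 CPM with vehicle, from 76, 65 and 71 counts. It fell 2.44-fold with no overlap (log2 fold change -1.29 ± 0.21, edgeR adjusted p = 1.99e-07), and the vehicle level was itself far under that of the untreated tumor libraries. Cyr61 stood at 139, 136 and 137 CPM with PB, against 167, 164 and 162 CPM with vehicle. Its change was small (log2 fold change -0.12 ± 0.03, adjusted p = 2.01e-04) and its size turned on the scaling, at -0.26 with library totals, the scale of the CPM given here. Ptpn14 stood at 96.4, 96.8 and 91.7 CPM with PB, against 153, 154 and 154 CPM with vehicle. This YAP-binding phosphatase fell 1.47-fold (log2 fold change -0.55 ± 0.03, adjusted p = 5.74e-24).

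The other regulators rose. Amotl2 stood at 106, 108 and 105 CPM with PB, against 55.4, 49.5 and 54.1 CPM with vehicle. It rose the most of the 9 (log2 fold change 1.14 ± 0.04, adjusted p = 3.03e-35). Ajuba stood at 373, 358 and 365 CPM with PB, against 209, 204 and 219.6 CPM with vehicle. Its 1.91-fold rise (log2 fold change 0.93 ± 0.03, adjusted p = 1.08e-41) brought it to its highest level of the study. Lats2 stood at 26.9, 27.1 and 27.6 CPM with PB, against 20.2, 17.3 and 17.6 CPM with vehicle (log2 fold change 0.70 ± 0.08, adjusted p = 5.80e-13). Tead1 stood at 312, 289.8 and 296 CPM with PB, against 221, 226 and 228 CPM with vehicle (log2 fold change 0.55 ± 0.03, adjusted p = 1.52e-28). In all 4 genes the PB libraries lay above the vehicle libraries. Axl (297, 289 and 294 CPM with PB, against 274, 268 and 268 CPM with vehicle; log2 fold change 0.26 ± 0.03, adjusted p = 2.60e-14) and Amotl1 (539, 532 and 539 CPM with PB, against 493, 516 and 503 CPM with vehicle; 0.23 ± 0.02, adjusted p = 5.32e-14) rose by little, also without overlap, and by less with library totals (0.12 and 0.09).

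Ankrd1 had 3, 2 and 2 counts with PB, against 3, 3 and 7 counts with vehicle, a ratio of CPM of 0.565 with a counting interval of 0.191 to 1.52. The authors' deposited table gives it a log2 fold change of -0.67 and an adjusted p of 0.620. Scaled by library totals, the median of all genes moved to -0.15 and the split to 3301 higher and 6155 lower, in place of 4666 and 4713. None of the 9 tested genes changed direction or lost its call in any of the 12 alternative fits of this comparison. Squamous markers summed to a mean of 12088 CPM with PB and 14176 CPM with vehicle, and gastric and columnar markers to 462 and 727 CPM, of which Krt18 made up 439.5 and 681 CPM. Tgfbr2 was also lower with PB (log2 fold change -0.36 ± 0.04, adjusted p = 4.21e-12). Their part in the PB results was not tested.

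Set side by side across the tables, with no test since each table was fitted on its own, the order of the groups differed from gene to gene. Ctgf averaged 366 ± 0.785 CPM (SD, n = 2) in tumor sgTgfbr2 and 4.42 ± 0.187 CPM (SD, n = 3) in vehicle libraries, which carry the same labelled stage and genotype. Cyr61 stood the other way, at 44.2 ± 2.89 CPM in tumor sgTgfbr2 and 164 ± 2.76 CPM in vehicle libraries. The order of group means for Ctgf was tumor sgTgfbr2, tumor sgScr, premalignant sgTgfbr2, premalignant sgScr, vehicle and PB, and of these neighbours premalignant sgScr and vehicle overlapped. For Cyr61 it was premalignant sgTgfbr2, vehicle, PB, premalignant sgScr, tumor sgTgfbr2 and tumor sgScr, with PB and premalignant sgScr overlapping. Ajuba, Amotl1 and Tead1 had their highest mean with PB and their next highest with vehicle. Ptpn14 was highest with vehicle, Axl, Cyr61 and Ankrd1 in premalignant sgTgfbr2, and Ctgf and Lats2 in tumor sgTgfbr2. For Lats2 that group overlapped with PB, for Ankrd1 premalignant sgTgfbr2 overlapped with tumor sgScr, and for Amotl2 the highest mean was that of PB, overlapping with tumor sgScr.

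Between genes, levels were compared per kilobase of exon. In premalignant sgTgfbr2 Cyr61 led with 175 ± 16.3 CPM per kb (SD, n = 4), followed by Axl at 148 ± 18.9, and the pair overlapped. Ctgf stood at 11.3 ± 1.88 and Ankrd1, the lowest, at 1.10 ± 0.713 CPM per kb. In premalignant sgScr Axl led, at 66.1 ± 14.3, and Cyr61 stood at 62.9 ± 11.7 CPM per kb (SD, n = 3), again with overlap. In tumor sgTgfbr2 Ctgf led at 128 ± 0.274 CPM per kb (SD, n = 2) and Ajuba followed at 26.5 ± 4.03. In tumor sgScr Axl led at 37.7 ± 3.83 CPM per kb (SD, n = 3), with Ctgf next at 19.6 ± 1.10 and no overlap. Axl thus led both untreated sgScr groups. With PB Ajuba led at 100.2 ± 2.01 CPM per kb and Ctgf stood at 0.573 ± 0.0889 (SD, n = 3). With vehicle Cyr61 led at 81.4 ± 1.37 and Ctgf stood at 1.55 ± 0.0652 CPM per kb. Ankrd1 had the lowest mean of the 10 in all 6 groups.

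The ratio of Ctgf to Cyr61 per kb, taken within each library, is free of that library's scaling. It was 0.0592, 0.0595, 0.0640 and 0.0762 in premalignant sgTgfbr2, against 0.0263, 0.0318 and 0.0377 in premalignant sgScr. In the tumor table it was 5.57 and 6.13 in sgTgfbr2, against 3.47, 4.05 and 2.64 in sgScr. With PB it was 0.00747, 0.00789 and 0.00996, against 0.0194, 0.0182 and 0.0193 with vehicle. Ctgf was the lesser of the CCN transcripts in all premalignant, PB and vehicle libraries and the greater in all 5 untreated tumor libraries.

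**Figure D5:**
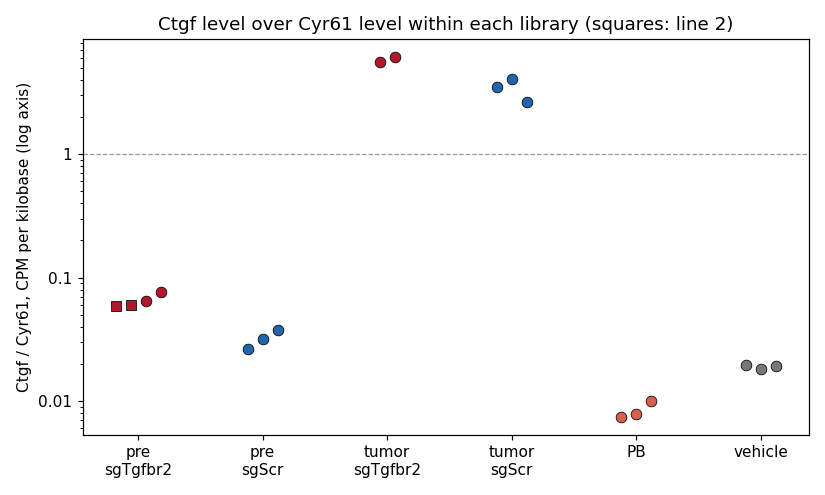
Ratio of Ctgf to Cyr61, both as CPM per kilobase of exon (vertical, log axis), in each of the 18 libraries; squares are sgTgfbr2 line 2 and the dashed line marks equal levels. The 5 untreated tumor libraries lie above the line, from 2.64 to 6.13, and all others at 0.0762 or lower.

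The rest of the pathway was followed in 4 lists, whose counts are to be read against the share of all genes called either way, 46.2% in premalignant organoids, 60.3% in the tumor table and 73.3% with PB. Of 15 other published YAP/TAZ targets, 13 were tested in premalignant organoids, where 9 rose and 1 fell with sgTgfbr2 (median log2 fold change 0.58; 22.7% and 23.5% of all genes). Tgfb2, a TGF-beta ligand (1.83 ± 0.34, adjusted p = 0.00248), the kinase gene Nuak2 (1.53 ± 0.18, adjusted p = 3.42e-04), the forkhead factor gene Foxf2 (1.35 ± 0.28, adjusted p = 0.00442) and the exchange factor gene Arhgef17 (0.99 ± 0.25, adjusted p = 0.00967) changed the most among those past the threshold. These values pool the lines. Between line 2 and line 1, 1 of 14 genes tested from this list was higher in line 2 and 5 were lower. Of all genes, 26.3% were called either way in that contrast. Tgfb2 (-0.85 ± 0.24, edgeR adjusted p = 0.0180), Foxf2 (-0.80 ± 0.20, adjusted p = 0.0107) and Arhgef17 (-0.62 ± 0.20, adjusted p = 0.0325) were among those lower in line 2. Of the same 15 in the tumor table, 7 rose and 2 fell (median 0.32; 29.8% and 30.5% of all genes). Igfbp3, an IGF-binding protein, rose by 5.70 ± 0.14 (log2, adjusted p = 3.86e-19), Crim1 by 1.67 ± 0.18 and the membrane repair protein gene Myof by 1.60 ± 0.13, while tissue factor F3 fell by 2.06 on the log2 scale (SE 0.14). With PB 6 of 13 rose and 5 fell (median 0.07; 36.5% and 36.8% of all genes). The growth arrest gene Gadd45a (2.35 ± 0.04), the ecto-nucleotidase gene Nt5e (1.28 ± 0.16) and F3 (0.98 ± 0.04) rose with PB and Nuak2 fell (-1.24 ± 0.06).

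The coactivators, their TEAD partners and TEAD cofactors made up another list. Of its 9 genes, 7 were tested in premalignant organoids, where 46.2% of all genes were called, and 2 rose and 0 fell: Tead3 (0.56 ± 0.11, adjusted p = 0.00297) and Wwtr1, which encodes TAZ (0.32 ± 0.09, adjusted p = 0.0144). Yap1 averaged 178 CPM in sgTgfbr2 and 186 CPM in sgScr and did not pass (-0.14 ± 0.08, adjusted p = 0.207). Of 8 tested in the tumor table, 2 rose and 2 fell, where 60.3% of all genes were called. Yap1 rose (1.25 ± 0.13, adjusted p = 1.82e-08), at a mean of 177 CPM in sgTgfbr2 and 60.9 CPM in sgScr, with Vgll3 (1.52 ± 0.21), and Tead4 fell (-2.03 ± 0.29). With PB 4 rose and 2 fell of 7, where 73.3% of all genes were called. Yap1 did not pass (-0.01 ± 0.03, adjusted p = 0.851), Wwtr1 (0.62 ± 0.03) and Tead4 (0.60 ± 0.06) rose, and Tead2 (-0.42 ± 0.16) and Tead3 (-0.38 ± 0.05) fell.

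Of 24 Hippo kinases, scaffolds and upstream regulators, 23 were tested in premalignant organoids, where 6 rose and 3 fell (median 0.07; 46.2% of all genes were called). The kinase gene Taok3 (1.38 ± 0.12), the protocadherin gene Fat1 (0.68 ± 0.16) and the polarity gene Crb3 (0.48 ± 0.11) rose. Of all 24 in the tumor table, 14 rose and 6 fell (median 0.60; 60.3% of all genes were called), with Fat1 (2.06 ± 0.15), Taok3 (2.04 ± 0.19) and Dlg5 (1.84 ± 0.21) higher and Amot, the founding angiomotin, lower (-2.41 ± 0.27). With PB 10 rose and 9 fell of 23 (median -0.05; 73.3% of all genes were called), with Rassf1 (1.10 ± 0.04), Frmd6 (0.56 ± 0.03) and Map4k4 (0.52 ± 0.02) higher and Taok2 lower (-1.15 ± 0.04). Of 13 SRF/MRTF cytoskeletal targets, 12 were tested in premalignant organoids, where 2 rose and 2 fell (median -0.01). All 13 were tested in the tumor table, where 8 rose and 1 fell (median 0.46). Of 12 tested with PB, 6 rose and 5 fell (median -0.02). These counts stand against the same shares of 46.2%, 60.3% and 73.3%. Actin tension also feeds into the Hippo pathway, so this list does not separate actin from YAP, TAZ and TEAD. The largest change of this list in the tumor table was a fall of the tropomyosin gene Tpm1 (-2.61 ± 0.14, adjusted p = 2.27e-13), which averaged 345 CPM in sgTgfbr2 and 1719 CPM in sgScr. Skeletal muscle markers averaged 3.33 CPM in tumor sgTgfbr2 and 18606 CPM in tumor sgScr, and smooth muscle markers 1618 and 404 CPM. The part of muscle content in the tumor results of this list, Tpm1 among them, was not tested. In premalignant organoids Tpm1 rose (0.52 ± 0.11, adjusted p = 0.00491). Srf itself (-0.54 ± 0.09) and the actin gene Actg1 (-0.41 ± 0.08) fell in premalignant organoids, and Actb fell with PB (-0.47 ± 0.02). Vinculin (Vcl) rose in premalignant organoids (1.24 ± 0.37, adjusted p = 0.0224) and in the tumor table (1.42 ± 0.13, adjusted p = 2.27e-09), and filamin A (Flna) rose in the tumor table (1.15 ± 0.13) and with PB (0.85 ± 0.02). The premalignant Vcl value pools unlike lines, since line 2 lay above line 1 (1.43 ± 0.10, edgeR adjusted p = 1.78e-07). In that line contrast 5 of 12 genes of this list were higher and 2 lower, where 26.3% of all genes were called. All values in these lists are log2 fold changes ± SE by edgeR, and each list is a description beside the all-gene medians given above.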

How the data were processed

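RNA was extracted with Trizol and sequenced in bulk, per the labels' protocols. The authors deposited 3 tables of 24421 genes with raw counts per gene for each library. Per the file headers, these also hold the authors' own log2 fold changes and p-values, raw and adjusted. STAR 2.6.0a, DESeq2 1.26.0 and mm10 are named in the submitters' processing notes; how reads were counted, and against which annotation, is not given in the sources used here, nor is use of strand. The 18 normalized columns the authors deposited were not used.

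The members and all gene lists were chosen with earlier results of these data known. Beyond the 10 genes and Tgfbr2, up to 4 genes per list and comparison are named, by size of change among called genes that average 5 CPM or more in the higher group; 1 such gene is not reported here. Counts were fitted within each table with edgeR 4.0.16 in R 4.3.3 (filterByExpr with a minimum count of 10, TMM, quasi-likelihood F test, two-sided, Benjamini-Hochberg over all genes tested, threshold 0.05). A standard error is the log2 fold change over the square root of F. The line contrast kept the sgScr libraries in the fit, and the stage contrast joined the premalignant and tumor tables on 24394 shared symbols. CPM are scaled to the library total; per kb values divide them by the union of exons in GENCODE M21. Promoter windows are RefSeq's (GRCm38.p6). With 3 counts at 0.138 to 0.200 CPM, scarcer genes cannot be told from 0. Replicates of 1 group and line differed by more than sampling noise (chi-square per degree of freedom 1.51 to 21.3), so none were merged. Alternatives were DESeq2 1.42.0, limma-voom 3.58.1 (not for the line and stage contrasts), library totals, no filter, a filter of 1 CPM, a replicate block, single lines, summed lines and each library left out. Counting intervals are 95% exact intervals.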

Additional observations from a re-analysis of the deposited data

Results flagged for a closer look

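Tead1 in premalignant sgTgfbr2 stood apart in 1 of 4 libraries. Line 2 replicate 1 held 209 CPM and the others 171 to 175 CPM, a gap of 0.881 of the group's range. Of the 10 genes' values in this group it was the only one past Dixon's limit, and chance alone passes about 1 group in 20. Tead1 kept its call without that library. Line 2 replicate 1 was also the highest library of the group in Cyr61, Ptpn14, Amotl1, Amotl2, Ajuba, Lats2 and Axl, but not in Ctgf or Ankrd1.

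By the contrast of the 2 tables (edgeR), the sgTgfbr2 difference from sgScr was not the same in tumor and premalignant libraries for 7 of the 10 genes. Of all 15671 genes tested, 49.5% were called either way. Stage and the tissue content of the libraries cannot be told apart in this contrast. In log2 units, tumor minus premalignant, the difference was -10.05 for Ankrd1, -2.80 for Amotl2, -2.47 for Axl, -2.28 for Ptpn14, -1.78 for Tead1, -1.47 for Amotl1 and 1.20 for Ajuba. The Ankrd1 value depends on the fit's prior count, since premalignant sgScr held 1 count.

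Between the sgTgfbr2 lines, line 2 minus line 1, 3 of the 10 genes were called, where 26.3% of 13438 genes were called either way. The log2 differences were -1.74 for Ankrd1, 0.43 for Amotl1 and 0.26 for Ajuba. With 1 library left out, the call was kept in 6 of 7 fits for Ankrd1, 2 of 7 for Amotl1 and 2 of 7 for Ajuba.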

How the results depend on the processing

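Of the 678 values recomputed for single genes, 638 kept their direction and their side of the threshold. In the PB comparison all 108 did. In premalignant organoids Lats2 lost its call in 2 fits and Ajuba gained one with line 1 alone, where the number of genes lower among the 10 became 1. Leaving out 1 library gave 1954 to 3018 genes higher, and summing lines gave 2044 lower. For the tumor table the scaling and tumor sgTgfbr2 replicate 1 moved the calls given in the report. The line contrast was the least stable: of the 10 genes, 1 was higher by DESeq2, 0 under library totals and 0 under a filter of 1 CPM, and leaving out 1 library gave 0 to 3 higher and 0 to 1 lower, with 691 to 2519 genes higher and 757 to 2528 lower over all genes. Left-out libraries also turned uncalled line differences, which ranged over -0.37 to 0.080 for Ctgf, -0.017 to 0.19 for Cyr61, -0.12 to 0.19 for Ptpn14 and -0.031 to 0.26 for Amotl2. The uncalled stage difference of Ctgf was -0.047 by DESeq2 and -0.0496 with line 1 alone, and -0.30 to 0.16 with a library left out. The causes were not tested. Correlations of same-numbered deviations were -0.104 to 0.142 in the premalignant, -0.0871 to -0.0172 in the tumor and -0.00951 to 0.00611 in the PB table. With 2 libraries in a line or group the deviations mirror each other. The premalignant and tumor values therefore cannot show whether replicate numbers pair the samples. In the PB table differently numbered libraries gave -0.0112 to 0.00788, so no pairing by number was seen there. With the replicate block 9 and 0 of the 10 genes were higher and lower in premalignant organoids, 3 and 6 in the tumor table and 6 and 3 with PB. In the line contrast the replicate block gave 2665 genes higher and 2700 lower, with 3 and 1 of the 10. No block was fitted for the stage contrast. The small groups and, for Ankrd1 and Ctgf under PB, the few counts limit precision.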
